A study of Mus musculus with 50 samples.

Results

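The genes described here are 28 genes of cholesterol synthesis, of the control of that synthesis, and of cholesterol transport, export and storage. They were taken by symbol from the deposited table of raw counts, which holds 45792 gene rows, and each of the 28 was found there in 1 row and passed the filter on low counts in every comparison. The tissue came from male C3H/He mice, an inbred strain prone to liver tumours, and was harvested at 48 weeks. Sources differ on whether these weeks are the age of the mice, as the methods have it, or the time on the diets, as a label has it. The mice ate either the ALIOS diet, a feed rich in trans fat given with fructose in the drinking water, or a control diet low in trans fat without sugar. Non-tumour liver gave 12 libraries on the control diet (control liver, N1 to N12) and 11 on the ALIOS diet (ALIOS liver, N13 to N23). Spontaneous tumours came from the ALIOS diet (ALIOS tumour, 12 libraries used) and, in 1 library, from the control diet (control tumour, T7). Tumours of mice that had also received diethylnitrosamine (DEN), a liver carcinogen, came from the control diet (control DEN tumour, 5 libraries, T17 to T21) and the ALIOS diet (ALIOS DEN tumour, 8 libraries). No liver from a mouse given DEN was among the samples, so in every comparison of a DEN tumour with liver the carcinogen and the tumour cannot be told apart. The study describes the spontaneous tumours as coming from different mice and the non-tumour livers as separate cases. The labels name no mouse and tie no tumour to a liver of the same mouse, so that the spread behind the p-values is that between libraries, and for the DEN tumours no source used here says that each came from a different mouse.

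Cholesterol is built from acetyl-CoA through mevalonate to isoprenoid units, which are joined to squalene, closed to lanosterol and then trimmed and desaturated in a series of steps to cholesterol. The genes of the pathway share a switch: when sterols in the endoplasmic reticulum run low, SCAP carries the transcription factor SREBP-2 (gene Srebf2) to the Golgi for cleavage and the pathway genes are transcribed, whereas INSIG1 and INSIG2 hold SCAP back when sterols are plentiful. The liver is the main organ that sends cholesterol out of the body, through the ABCG5-ABCG8 pair in the canalicular membrane, and it loads cholesterol onto lipoproteins through ABCA1 or stores it as esters made by SOAT1 and SOAT2. The 28 genes are not the whole pathway. They hold no lipoprotein receptor, and the carrier STARD4 moves cholesterol between membranes inside the cell.

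Libraries held between 23798251 and 45751398 counted read pairs assigned to genes, and levels are given as CPM, the counts of a gene per 1000000 counts of its library, after scaling the libraries to a common composition (TMM). Hepatocyte RNA was abundant in all 49 libraries used, with albumin (Alb) from 47940 to 203100 CPM. A further ALIOS diet tumour, T1, held 365 CPM over 7 hepatocyte genes, against 82950 CPM or more in each other library, and 28000 CPM over 5 kidney genes, against at most 21.96, and was left out. When all genes except the 28 were clustered, 5 tumours fell with the livers: T2, T3 and T6 among the ALIOS tumours and T23 and T25 among the ALIOS DEN tumours. Tumour T24 (ALIOS DEN) had the highest summed level of 6 stellate cell and matrix genes, 1227 CPM against at most 671 in any other library. Counts of genes called are given with and without the 5 tumours.

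In liver the 28 genes spanned a wide range. Per kilobase of annotated exon, the median level in control livers was highest for Insig1 (149 CPM per kb), followed by Ebp and Sc5d (113 CPM per kb each), Hmgcs1 (87.6) and Fdps (81.3), and lowest for Mvk (11.2), Srebf2 (7.13) and Soat1 (0.480). The neighbours Ebp and Sc5d differed by less than the spread of either over the libraries, whereas Srebf2 and Soat1, the last of the order, did not overlap. Abca1 and Soat2 varied least between the 12 control livers, with a coefficient of variation of 8.86% and 10.2%, and Insig2 and Hmgcs1 varied most, with 89.8% and 59.9%.

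A pair of patterns showed within the control livers. Hmgcs1, which encodes the cytosolic HMG-CoA synthase, an early step of the mevalonate pathway, was at 1138, 763 and 881 CPM in N5, N6 and N7 and between 214.5 and 529 CPM in the other 9 control livers. Those 3 livers also held the highest Srebf2 levels of the group (89.5, 60.8 and 67.9 CPM, against at most 54.3). The opposite held for fatty acid synthesis in the same libraries: 7 genes of that pathway summed to 2265, 4901 and 4377 CPM in N5, N6 and N7 and to between 5737 and 50640 CPM in the others. Insig2 stood apart in different livers, N11 and N12, at 564 and 453 CPM against 76.0 to 160 in the other 10.

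**Figure D1:**
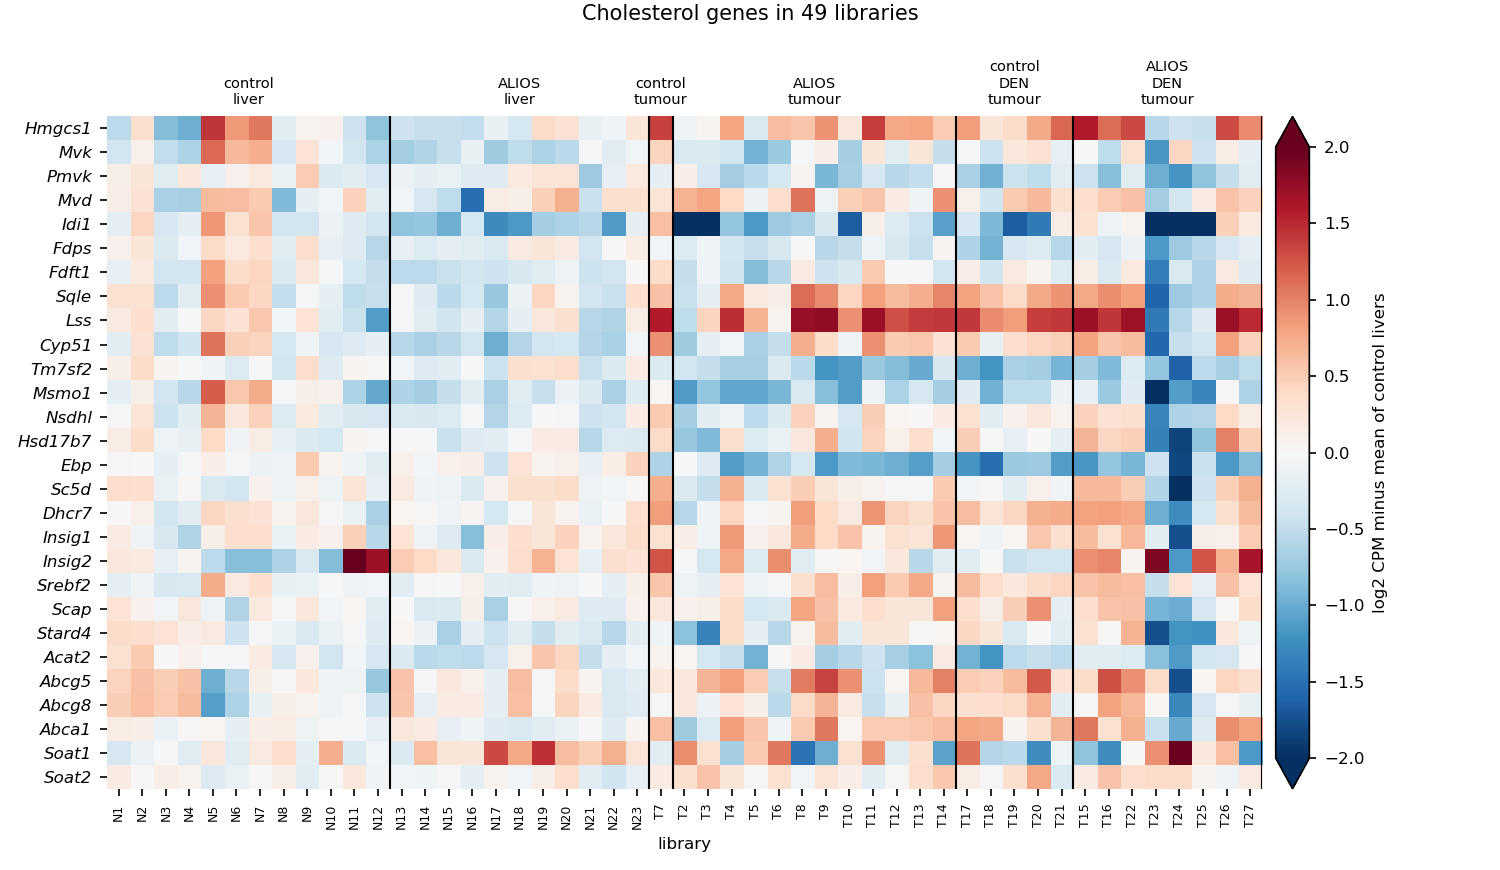
Each column is 1 of the 49 libraries, grouped by tissue, diet and DEN, and each row is 1 gene; colour gives log2 CPM minus the mean of the 12 control livers, with values beyond 2 in either direction drawn in the end colours. Lss is red and Ebp blue in most tumour columns, N5 to N7 are red for much of the synthesis pathway, and T23 to T25 are blue for it.

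The sequence just upstream of the start of several of these genes is printed because they were called, higher or lower, in the tumour comparisons that follow. A relation between the motifs and the direction of change was not tested. RefSeq promoter windows on GRCm38.p6 matched 23 of the 28 genes, in 30 windows, and the 250 bases before each start were searched on both strands for TCACNCCAC (the core of a sterol regulatory element, bound by SREBP-2), CCAAT (bound by NF-Y) and GGGCGG (bound by Sp1). TCACNCCAC was present in 1 of the 30 windows, that of Hmgcs1, and in 1.05% of all 32851 windows of that length. CCAAT was present in 19 of the 30 windows and 33.8% of all windows, and GGGCGG in 21 of the 30 and 32.7% of all. A match is only a run of letters, and its absence says that those letters are not in that window. Each stretch runs 5′ to 3′ on the gene's strand, leaves out bases annotated as exon, and shows matches to the motifs in capitals, none of which overlap. The stretches of Lss and Cyp51 end 17 and 49 bases before the RefSeq start.
Hmgcs1, chr13:119690201-119690350, plus strand: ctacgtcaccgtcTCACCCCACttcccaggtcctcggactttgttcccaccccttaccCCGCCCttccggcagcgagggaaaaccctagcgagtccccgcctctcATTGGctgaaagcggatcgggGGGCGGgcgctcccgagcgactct
Lss, chr10:76531438-76531587, plus strand: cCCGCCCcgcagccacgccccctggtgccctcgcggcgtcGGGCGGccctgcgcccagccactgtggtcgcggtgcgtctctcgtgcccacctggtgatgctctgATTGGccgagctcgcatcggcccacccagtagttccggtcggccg
Cyp51, chr5:4104747-4104896, minus strand: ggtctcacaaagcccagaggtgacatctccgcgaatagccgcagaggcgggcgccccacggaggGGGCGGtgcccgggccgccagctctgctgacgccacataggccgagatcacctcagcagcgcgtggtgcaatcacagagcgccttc
Ebp, chrX:8193513-8193662, minus strand: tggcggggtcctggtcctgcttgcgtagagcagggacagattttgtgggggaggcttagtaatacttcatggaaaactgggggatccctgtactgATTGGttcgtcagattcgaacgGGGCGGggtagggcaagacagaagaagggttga
Abca1, chr4:53159896-53160045, minus strand: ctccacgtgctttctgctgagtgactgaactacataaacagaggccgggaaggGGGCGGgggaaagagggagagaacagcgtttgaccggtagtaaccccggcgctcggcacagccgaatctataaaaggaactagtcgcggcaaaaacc
Lss was higher in all 3 comparisons of tumour with liver, and Hmgcs1 and Cyp51 in the 2 on the ALIOS diet. Ebp was lower and the exporter Abca1 higher in all 3. The CCAAT match of Cyp51 lies in bases annotated as exon and is not printed.

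The first comparison set livers of the ALIOS diet against livers of the control diet. The study reports more tumours, steatosis and lobular inflammation in ALIOS mice. The diet itself and these conditions that came with it cannot be told apart in this comparison. On the ALIOS diet 4 genes were lower and 1 was higher: Idi1, Cyp51, Fdft1 and Stard4 fell and Soat1 rose. That is 5 of 28 called by edgeR at an adjusted p under 0.05, where 11.2% of the 13723 genes tested were called, 6.73% higher and 4.51% lower. The median log2 fold change was -0.11 over the 28 genes and -0.022 over all genes. All 7 genes of the mevalonate arm had a negative log2 fold change, and 1 of them passed the test. That direction rested in part on control livers N5, N6 and N7, without which 3 of the 7 were above 0: Hmgcs1 at 0.18 ± 0.17 (adjusted p = 0.521), Mvd at 0.16 ± 0.22 (adjusted p = 0.675) and Fdps at 0.0041 ± 0.11 (adjusted p = 0.988).

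Idi1 encodes the isomerase that makes the active isoprenoid units. It ranged over 89.4 to 209.6 CPM (median 102) in control livers and 47.6 to 101 CPM (median 67.7) in ALIOS livers, so that the highest ALIOS liver lay below the control median (log2 fold change -0.82 ± 0.16 SE, adjusted p = 0.0039). Cyp51, the lanosterol demethylase, ranged over 149 to 451 CPM (median 184) in control livers and 108 to 202 CPM (median 142) in ALIOS livers (log2 fold change -0.60 ± 0.16 SE, adjusted p = 0.0174). Fdft1, squalene synthase, fell by less (log2 fold change -0.41 ± 0.13 SE, adjusted p = 0.0452), with 146 to 358 CPM (median 190.1) against 139.8 to 201 CPM (median 155). Of the exon bases of Fdft1, 18.3% overlap those of Ctsb on the other strand, and the strand setting of the counting is not stated, so part of its count is uncertain. Msmo1, a methylsterol oxidase, followed in the order of p-values without passing the test (log2 fold change -0.56 ± 0.19 SE, adjusted p = 0.0574). Stard4 ranged over 215 to 369.5 CPM (median 279.8) and 181 to 292 CPM (median 242) (log2 fold change -0.33 ± 0.096 SE, adjusted p = 0.0274). The ranges of all these genes overlapped between the diets.

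Soat1 encodes the cholesterol-esterifying enzyme that is typical of macrophages, whereas Soat2 is the hepatocyte form. Soat1 was the least abundant of the 28, with 3.95 to 8.22 CPM (median 4.69) in control livers and 4.1 to 13.8 CPM (median 7.59) in ALIOS livers (log2 fold change 0.62 ± 0.17 SE, adjusted p = 0.022). Its highest levels were in N19 (13.8 CPM) and N17 (12.4 CPM). The same livers held the most macrophage RNA: 10 macrophage genes summed to 1303 CPM in N19 and 938 CPM in N17, over a range of 349.8 to 1303 CPM in ALIOS and 246 to 605 CPM in control livers. Of these 10 genes 8 were higher on the ALIOS diet, and none was at 0. The part of the macrophage genes in the Soat1 result was not tested, and more macrophages and more Soat1 RNA per cell cannot be told apart in bulk tissue. Soat2, in contrast, had a log2 fold change of -0.068 ± 0.072 (adjusted p = 0.558), at 33.3 to 45.7 CPM (median 39.7) and 30.0 to 50.5 CPM (median 38).

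**Figure D2:**
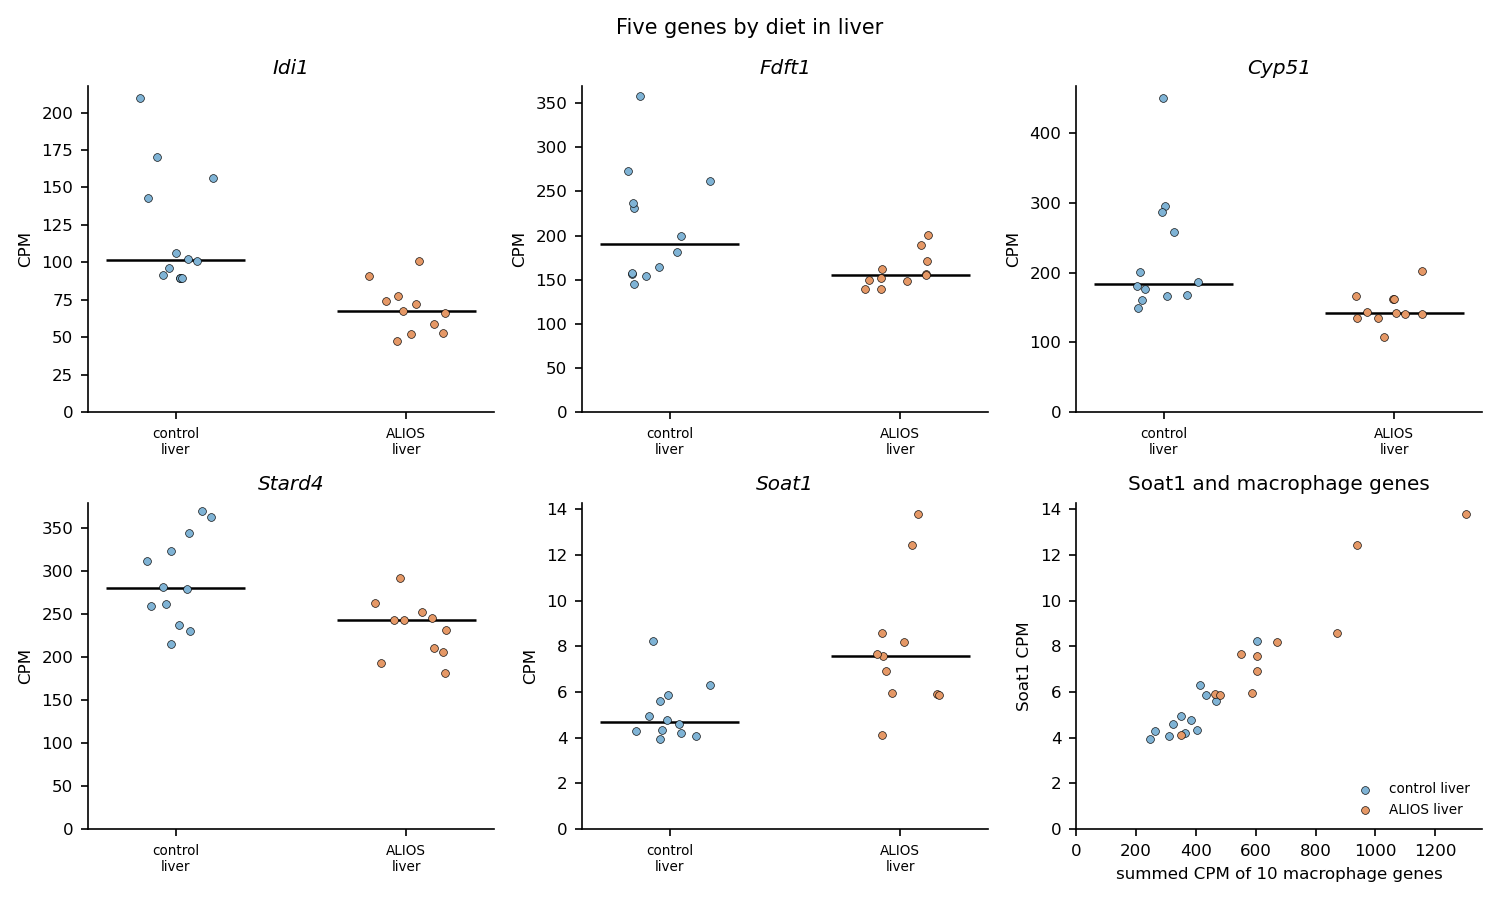
Levels in CPM of the 5 called genes in the 12 control and 11 ALIOS livers (points, libraries; bars, medians), and, in the last panel, Soat1 against the summed CPM of 10 macrophage genes. Soat1 is highest, at 12.4 and 13.8 CPM, in the ALIOS livers with the highest macrophage sums.

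Other genes fixed for full reporting did not pass the test in this comparison. Hmgcs1 was at 214 to 1138 CPM (median 402) and 302 to 554 CPM (median 379.8), a log2 fold change of -0.34 ± 0.25 (adjusted p = 0.373). Sqle, squalene epoxidase, was at 110.0 to 298 CPM (median 147) and 93.9 to 214 CPM (median 133), a log2 fold change of -0.24 ± 0.17 (adjusted p = 0.372), and without N5, N6 and N7 one of 0.013 ± 0.15 (adjusted p = 0.97). For the regulators, the log2 fold change was -0.12 ± 0.098 (adjusted p = 0.443) for Srebf2, 0.068 ± 0.14 (adjusted p = 0.78) for Insig1 and -0.099 ± 0.31 (adjusted p = 0.861) for Insig2. For the exporters, it was 0.035 ± 0.17 (adjusted p = 0.91) for Abcg5, 0.037 ± 0.17 (adjusted p = 0.908) for Abcg8 and -0.097 ± 0.068 (adjusted p = 0.359) for Abca1. Levels of Srebf2 were 42.9 to 89.5 CPM (median 51.2) and 45.4 to 58.1 CPM (median 50.5), and those of Abca1 were 197 to 252 CPM (median 230.4) and 184 to 266 CPM (median 207).

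The diet calls depended on which libraries were kept. Without N17 or without N19 the count fell to 2, and the adjusted p of Soat1 became 0.0506 and 0.0503. It fell to 3 without N1 or without N22, in each of which Stard4 lost its call (adjusted p = 0.0514 and 0.0533). The calls over all genes in these fits are not given here, so whether the fall is particular to the 28 is not shown. Without N5, N6 and N7, 4 of the 28 and 1417 of 13833 genes tested were called. The log2 fold change was then -0.58 ± 0.13 (adjusted p = 0.0107) for Idi1, -0.31 ± 0.098 (adjusted p = 0.0467) for Cyp51 and -0.36 ± 0.10 (adjusted p = 0.0292) for Stard4, while it was -0.19 ± 0.093 (adjusted p = 0.2) for Fdft1, which lost its call, and -0.19 ± 0.13 (adjusted p = 0.33) for Msmo1. With all 6 groups in 1 fit, none of the 28 was called, and 623 of 17728 genes tested were called. DESeq2 called 7 of the 28 and 2451 of 17446 genes tested. Mvk was called without N4 or without N12 (-0.59 ± 0.18, adjusted p = 0.0481 and -0.59 ± 0.18, adjusted p = 0.0446), and Msmo1 in 3 such fits. Of the 23 fits that left out 1 library, Fdft1 lost its call in 15 and Idi1 in none.

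The next comparisons asked how tumours differed from liver. Within the synthesis pathway some genes were higher in tumours and others lower. Lss, which closes squalene epoxide to lanosterol, was higher in all 3 comparisons of tumour with liver, as were Srebf2 and Abca1. Ebp and Tm7sf2, which act on sterol intermediates after lanosterol, and Pmvk, the phosphomevalonate kinase, were lower in all 3. Not all of these calls held under the alternatives given below, among them Abca1 in ALIOS DEN tumours and Pmvk in ALIOS tumours. In ALIOS tumours against ALIOS livers edgeR called 14 of the 28 genes, 10 higher and 4 lower. Of all 14183 genes tested 52.8% were called, 26.9% higher and 25.9% lower, so that the number of calls among the 28 was close to that among all genes. In ALIOS DEN tumours against ALIOS livers 10 were called, 7 higher and 3 lower, where 47.5% of all genes were called, 27.7% higher and 19.8% lower. In control DEN tumours against control livers 13 were called, 7 higher and 6 lower, where 51.7% of all genes were called, 27.3% higher and 24.4% lower. The median log2 fold change over the 28 genes and over all genes was 0.18 and 0.010, 0.27 and 0.078, and 0.097 and 0.031 in the 3 comparisons in this order. The first 2 comparisons share the ALIOS livers.

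**Figure D3:**
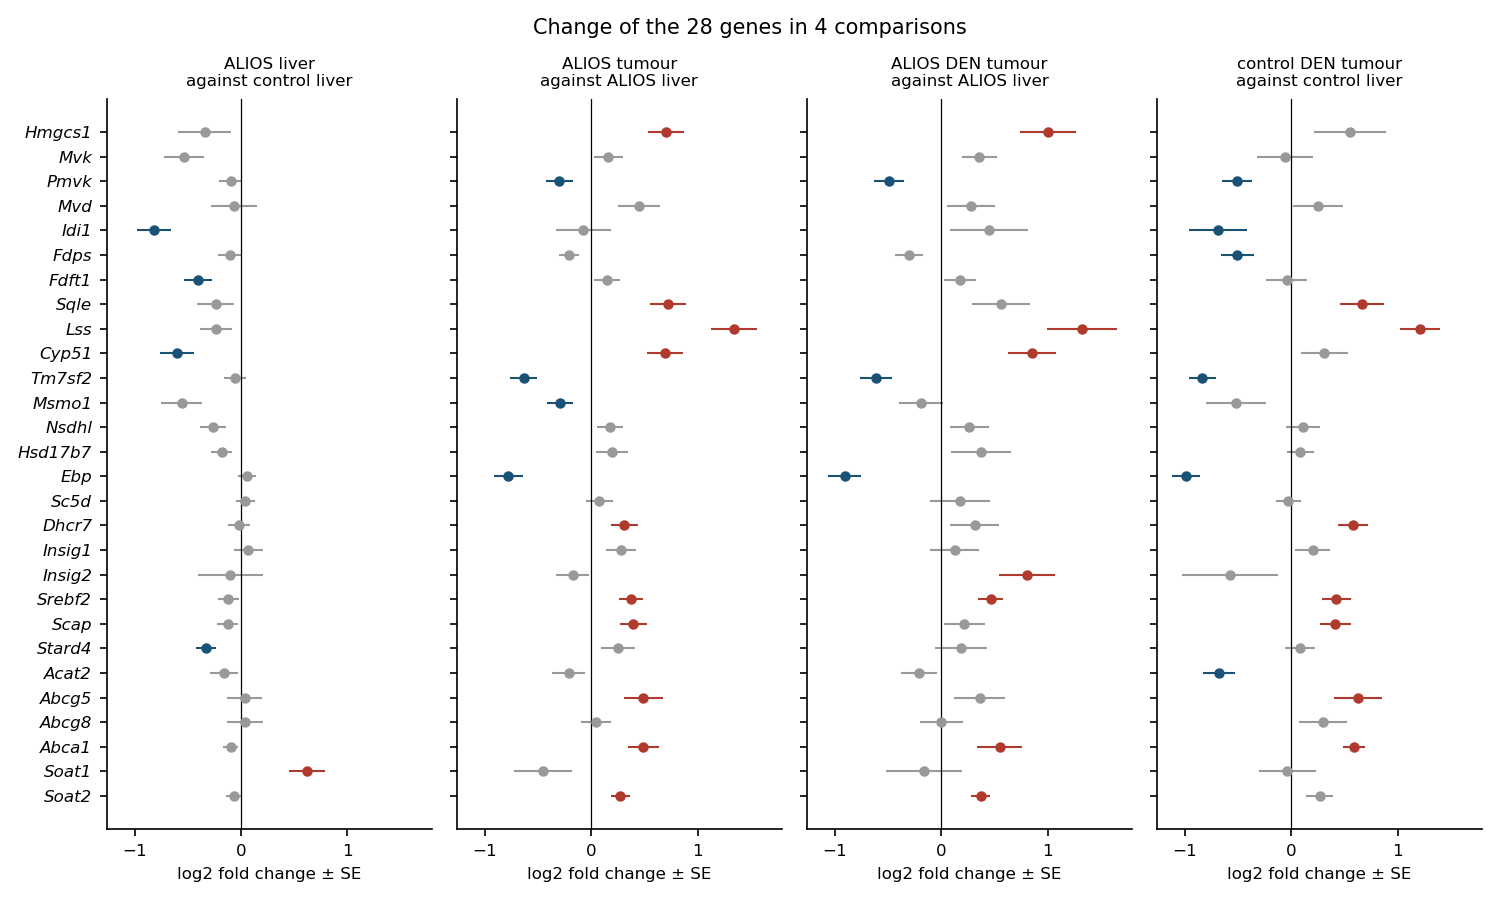
Log2 fold change (points) with its standard error (bars) for each of the 28 genes, in pathway order, for the diet comparison in liver and the 3 comparisons of tumour with liver; red and blue mark genes called higher and lower at an adjusted p under 0.05, and grey marks the rest. In each tumour panel Lss lies farthest to the right and Ebp farthest to the left.

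Lss was at 102 to 194 CPM (median 136) in ALIOS livers and 109 to 533 CPM (median 395) in ALIOS tumours (log2 fold change 1.34 ± 0.22 SE, adjusted p = 2.3e-05). In ALIOS DEN tumours it was at 58.3 to 517 CPM (median 429.8) (log2 fold change 1.32 ± 0.33 SE, adjusted p = 0.00272). The low end of both tumour groups came from 6 tumours, which are the 5 that clustered with liver and T24: Lss was at 109 to 212 CPM in T2, T3 and T6, at 58.3 and 131 CPM in T23 and T25 and at 104 CPM in T24, and at 251 to 533 CPM in the other tumours on the ALIOS diet. On the control diet the groups did not overlap, with 72.1 to 227 CPM in the 12 livers and 415, 298, 278, 406 and 413 CPM in T17 to T21 (log2 fold change 1.205 ± 0.19 SE, adjusted p = 2.58e-05).

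The steps on either side of Lss rose with it in part of the comparisons. Sqle, which acts just before it, was at 93.9 to 214 CPM (median 133) in ALIOS livers, 117 to 343 CPM (median 255) in ALIOS tumours and 53.1 to 302 CPM (median 259.8) in ALIOS DEN tumours. Its log2 fold change was 0.73 ± 0.17 (adjusted p = 0.00102) in the spontaneous and 0.56 ± 0.27 (adjusted p = 0.0944) in the DEN tumours of that diet, where it was called without T23 (0.68 ± 0.22, adjusted p = 0.0164) or without T24 (0.66 ± 0.26, adjusted p = 0.0399). Sqle in control DEN tumours was at 279, 235, 207, 268 and 295 CPM, against 110.0 to 298 CPM (median 147) in control livers (log2 fold change 0.66 ± 0.21 SE, adjusted p = 0.0115). With all 6 groups in 1 fit this call was lost (adjusted p = 0.0507). Cyp51, the next enzyme after Lss, was at 129.7 to 399.9 CPM (median 230.4) in ALIOS tumours (log2 fold change 0.70 ± 0.17 SE, adjusted p = 0.00139) and 71.5 to 373 CPM (median 300.2) in ALIOS DEN tumours (log2 fold change 0.85 ± 0.23 SE, adjusted p = 0.00453). On the control diet it was at 305, 190.1, 266, 286 and 295 CPM in DEN tumours and did not pass the test (log2 fold change 0.31 ± 0.22 SE, adjusted p = 0.245), although without N5, N6 and N7 among the livers its log2 fold change was 0.60 ± 0.13 (adjusted p = 0.00112).

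Hmgcs1, early in the pathway, was called in the same tumour comparisons as Cyp51. It was at 302 to 554 CPM (median 379.8) in ALIOS livers, 341 to 1106 CPM (median 634) in ALIOS tumours and 287 to 1268 CPM (median 867) in ALIOS DEN tumours (log2 fold change 0.71 ± 0.17 SE, adjusted p = 0.00113 in the first and log2 fold change 1.005 ± 0.27 SE, adjusted p = 0.00435 in the second). In the 5 control DEN tumours it was at 752, 500.5, 549, 718 and 942 CPM, within the range of control livers (log2 fold change 0.55 ± 0.34 SE, adjusted p = 0.185), and without N5, N6 and N7 the log2 fold change was 1.06 ± 0.21 (adjusted p = 0.000505). The sequence of Hmgcs1 printed above is the only one that holds TCACNCCAC, whereas that of Lss holds CCAAT and GGGCGG alone.

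Ebp encodes the sterol isomerase that moves a double bond within the ring system, late in the pathway. It was at 199.8 to 365 CPM (median 287) in ALIOS livers, 119.8 to 268 CPM (median 143) in ALIOS tumours and 75.4 to 199.6 CPM (median 143) in ALIOS DEN tumours (log2 fold change -0.78 ± 0.13 SE, adjusted p = 4.2e-05 and log2 fold change -0.91 ± 0.15 SE, adjusted p = 8.91e-05). Each of the 8 ALIOS DEN tumours was below each of the 11 ALIOS livers, T23 and T25 by the smallest margin. The control DEN tumours had Ebp at 118, 93.4, 159, 162 and 122 CPM, below the lowest control liver at 229.9 CPM (log2 fold change -0.99 ± 0.13 SE, adjusted p = 4.78e-06). Among the ALIOS tumours that clustered with liver, Ebp was within the range of ALIOS livers in T2 and T3 (268 and 224 CPM) and below it in T6 (177 CPM).

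Tm7sf2, a sterol reductase that acts after Cyp51, was at 146 to 254 CPM (median 191) in ALIOS livers, 86.6 to 164 CPM (median 126) in ALIOS tumours and 65.1 to 165 CPM (median 125) in ALIOS DEN tumours (log2 fold change -0.63 ± 0.12 SE, adjusted p = 0.000177 and log2 fold change -0.61 ± 0.15 SE, adjusted p = 0.00282). Control DEN tumours had 101, 87, 127, 124 and 105 CPM, against 153 to 258 CPM (median 202) in control livers, with no overlap (log2 fold change -0.84 ± 0.13 SE, adjusted p = 1.93e-05). Of its exon bases 12.1% overlap those of Vps51 on the same strand, and in the counting mode used a read pair lying wholly in bases of both genes is ambiguous and counted for neither. Pmvk fell less, with log2 fold changes of -0.30 ± 0.13 (adjusted p = 0.0473), -0.49 ± 0.14 (adjusted p = 0.00809) and -0.51 ± 0.14 (adjusted p = 0.00495) in the 3 comparisons. Its levels were 73.1 to 144 CPM (median 110.2) in ALIOS livers, 64 to 132 CPM (median 90.02) in ALIOS tumours and 53.3 to 102 CPM (median 77.9) in ALIOS DEN tumours, and the first of these calls was lost in 17 of the 23 fits that left out 1 library, with an adjusted p of up to 0.154. The same call was lost by DESeq2 (adjusted p = 0.0575), with its size factors in edgeR (0.0593), with no filter (0.107) and with T1 kept (0.228). It was kept with all 6 groups in 1 fit (0.0385) and without the tumours that cluster with liver (0.0303).

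**Figure D4:**
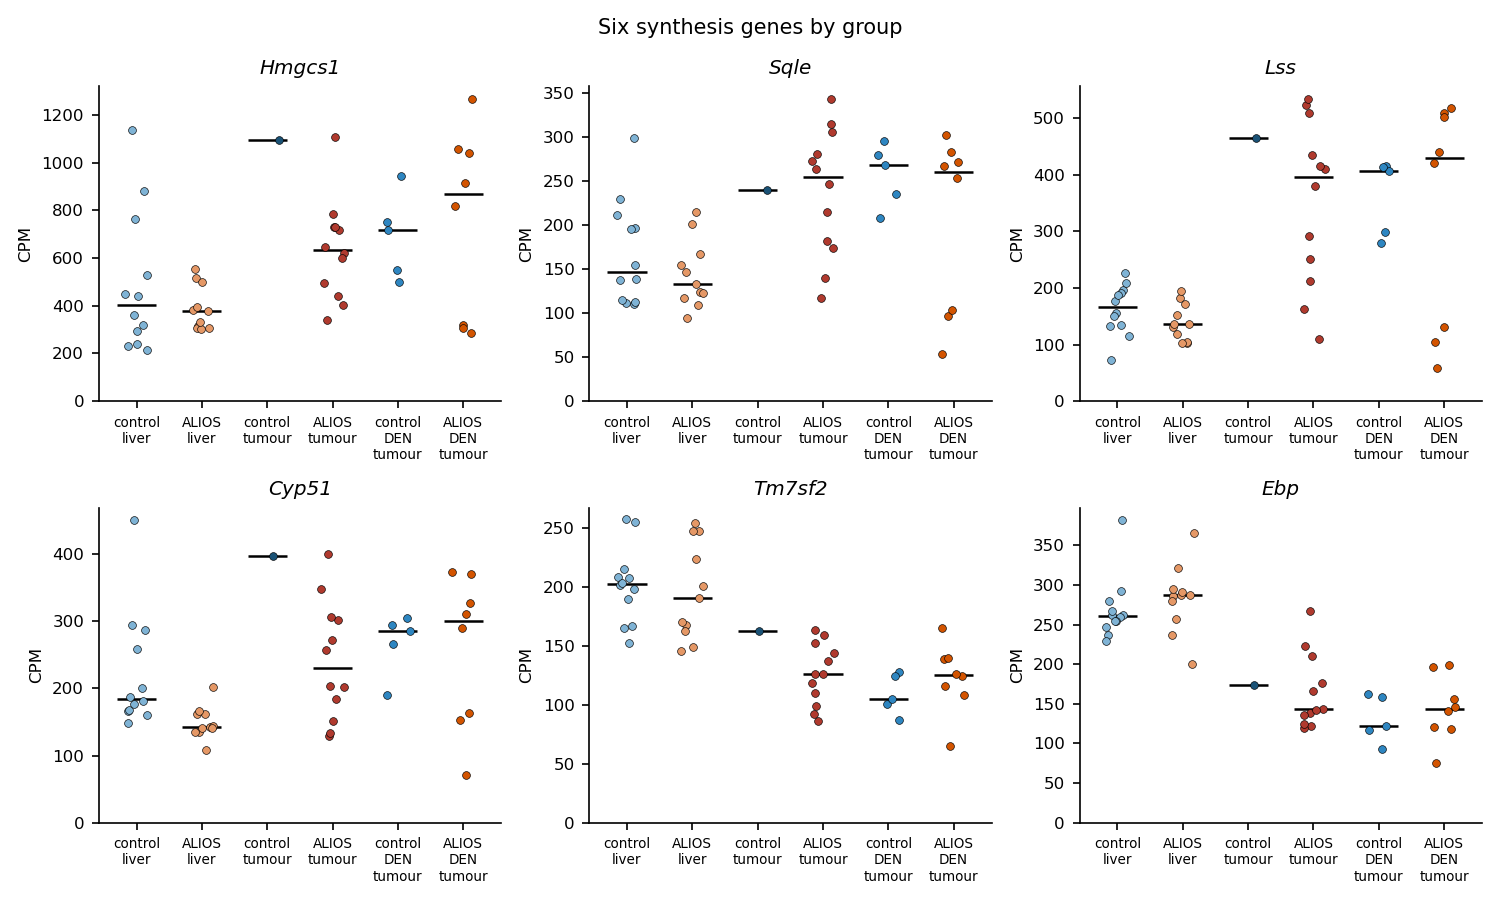
Levels in CPM of 6 synthesis genes in pathway order in the 6 groups (points, libraries; bars, medians; control tumour is a single library). The control DEN tumours lie above all control livers for Lss and below all of them for Tm7sf2 and Ebp, and the low points of Sqle, Lss and Cyp51 among ALIOS DEN tumours are T23, T24 and T25.

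No other gene of the synthesis pathway was called in all 3 comparisons of tumour with liver. In control DEN tumours, 4 of the 7 mevalonate arm genes were lower and none higher: Idi1 (log2 fold change -0.69 ± 0.27 SE, adjusted p = 0.0391), Fdps (log2 fold change -0.51 ± 0.16 SE, adjusted p = 0.0102), Acat2 and Pmvk. Over all genes tested in that comparison 24.4% were called lower and 27.3% higher. Without livers N5, N6 and N7, Hmgcs1, a gene of the same arm, was called higher (1.06 ± 0.21, adjusted p = 0.000505). Acat2 encodes the cytosolic thiolase that joins acetyl-CoA units and is not the esterifying enzyme. It was at 69.2, 58.2, 93.5, 97.3 and 93 CPM in T17 to T21, each below the lowest control liver at 102.6 CPM (log2 fold change -0.68 ± 0.15 SE, adjusted p = 0.00093). A close copy, Acat3, lies beside it, so reads of the pair may have been divided. Idi1 was at 91.4, 62, 36.6, 43.4 and 128 CPM in the same tumours, and its call was lost without T18, T19 or T20 (adjusted p = 0.0867, 0.115 and 0.0954) and without N5, N6 and N7 (0.122). Against ALIOS livers the log2 fold change of Acat2 was -0.21 ± 0.16 (adjusted p = 0.265) in spontaneous and -0.21 ± 0.17 (adjusted p = 0.311) in DEN tumours, at 92.1 to 197 CPM (median 109) in livers, 69.8 to 149.9 CPM (median 98.6) and 61 to 134 CPM (median 108).

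Dhcr7, which catalyses the last step to cholesterol, rose in control DEN tumours to 299, 233, 261, 317 and 324 CPM from 124 to 259 CPM (median 199.8) (log2 fold change 0.58 ± 0.14 SE, adjusted p = 0.0019). In ALIOS tumours its call (log2 fold change 0.31 ± 0.13 SE, adjusted p = 0.0444) was lost in 11 of the 23 fits that left out 1 library. Msmo1 was called lower in ALIOS tumours (log2 fold change -0.29 ± 0.12 SE, adjusted p = 0.0455), a call lost in 17 of the 23. That call was also lost by DESeq2 (adjusted p = 0.0507), with its size factors in edgeR (0.0556) and with no filter (0.0932). Mvk, Mvd, Nsdhl, Hsd17b7 and Sc5d, together with Insig1 and Abcg8, were called in none of the 7 comparisons as fitted, although, on the ALIOS diet, Nsdhl and Hsd17b7 were called higher than in liver in both kinds of tumour once the tumours that cluster with liver were left out. Mvk was called higher in ALIOS DEN tumours without T23 and T25 (0.52 ± 0.14, adjusted p = 0.00373) and without T23 alone (0.44 ± 0.14, adjusted p = 0.0122). Mvd (log2 fold change 0.45 ± 0.19 SE, adjusted p = 0.0556) was called higher in ALIOS tumours by DESeq2 (0.46 ± 0.20, adjusted p = 0.0483), with its size factors in edgeR and in 9 of the 23 fits that left out 1 library. Fdps, which makes farnesyl units, was at 226 to 440.3 CPM (median 342) in control livers and 220.1, 176, 268, 279 and 227 CPM in control DEN tumours, and at 231 to 352 CPM (median 269.8) and 152 to 311 CPM (median 267) in ALIOS and ALIOS DEN tumours, where it was called lower in 4 and 3 of the fits that left out 1 library. In ALIOS DEN tumours Fdps was also called lower by DESeq2 (-0.34 ± 0.13, adjusted p = 0.0309), with its size factors in edgeR (0.0423) and with all 6 groups in 1 fit (0.0162). It was not called there with no filter (0.063) or without the tumours that cluster with liver (0.154).

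Among the regulators, Srebf2 was at 45.4 to 58.1 CPM (median 50.5) in ALIOS livers, 47.3 to 94.8 CPM (median 61.6) in ALIOS tumours and 38.8 to 83.3 CPM (median 72.4) in ALIOS DEN tumours (log2 fold change 0.37 ± 0.11 SE, adjusted p = 0.007 and log2 fold change 0.46 ± 0.12 SE, adjusted p = 0.00377). It was at 83.4, 68.9, 62.1, 69.1 and 72.2 CPM in control DEN tumours, against 42.9 to 89.5 CPM (median 51.2) in control livers (log2 fold change 0.42 ± 0.14 SE, adjusted p = 0.0142), and without T17 the adjusted p was 0.0526. Scap, the escort of SREBP-2, was called higher in ALIOS tumours (log2 fold change 0.40 ± 0.13 SE, adjusted p = 0.0117) and control DEN tumours (log2 fold change 0.41 ± 0.15 SE, adjusted p = 0.0249), the latter lost without T19 or T20 (adjusted p = 0.062 and 0.242). Its levels were 95.6 to 169 CPM (median 151) in ALIOS livers, 118 to 266 CPM (median 178) in ALIOS tumours and 189, 163, 212, 284 and 131 CPM in control DEN tumours. In ALIOS DEN tumours Scap was at 75.8 to 226 CPM (median 170) and was not called (by DESeq2, 0.18 ± 0.20, adjusted p = 0.51). Insig1, itself a target of SREBP-2, did not pass the test, at 237 to 589 CPM (median 502) in ALIOS livers, 401 to 785 CPM (median 519.6) in ALIOS tumours and 127 to 676 CPM (median 498) in ALIOS DEN tumours. The 5 control DEN tumours had 438, 407, 441, 622 and 532 CPM, against 281 to 598 CPM (median 460.2) in control livers. Its log2 fold change was 0.28 ± 0.14 (adjusted p = 0.0932), 0.12 ± 0.23 (adjusted p = 0.675) and 0.20 ± 0.16 (adjusted p = 0.321) in the 3 comparisons, and in the first it was called without T5, T6 or T12 (adjusted p = 0.0353, 0.042 and 0.0495).

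Of the exporters, Abca1 was at 184 to 266 CPM (median 207) in ALIOS livers, 138 to 468 CPM (median 324) in ALIOS tumours (log2 fold change 0.49 ± 0.15 SE, adjusted p = 0.00764) and 113 to 470.4 CPM (median 324) in ALIOS DEN tumours (log2 fold change 0.55 ± 0.21 SE, adjusted p = 0.0391). The last of these calls was lost without T15, T16, T22, T26 or T27, with an adjusted p of up to 0.128. It was also lost by DESeq2 (adjusted p = 0.0501), with DESeq2 size factors in edgeR (0.0503) and with no filter (0.0741). It was kept with all 6 groups in 1 fit (0.0255) and without the tumours that cluster with liver (0.0054). Abca1 in control DEN tumours was at 391, 381, 238, 281 and 362 CPM, against 197 to 252 CPM (median 230.4) in control livers (log2 fold change 0.59 ± 0.11 SE, adjusted p = 0.000115). Abcg5 rose in ALIOS tumours, from 76.4 to 144 CPM (median 97.4) to 68 to 239 CPM (median 148) (log2 fold change 0.49 ± 0.18 SE, adjusted p = 0.0261; without T9, adjusted p = 0.0541). On the control diet it was at 134, 129, 146, 219.5 and 115 CPM in DEN tumours, against 47.6 to 142 CPM (median 98.8) (log2 fold change 0.63 ± 0.23 SE, adjusted p = 0.0257; without T20, adjusted p = 0.164). In ALIOS DEN tumours it was at 27.9 to 226 CPM (median 122), a log2 fold change of 0.36 ± 0.24 (adjusted p = 0.23), and without T24 it was called (0.51 ± 0.16, adjusted p = 0.0118).

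Its partner Abcg8 did not pass the test in any of these comparisons. Abcg8 was at 90.1 to 169 CPM (median 124) in ALIOS livers, 76.5 to 179 CPM (median 127) in ALIOS tumours and 45.8 to 194 CPM (median 111) in ALIOS DEN tumours, with log2 fold changes of 0.042 ± 0.14 (adjusted p = 0.827), -0.0005 ± 0.20 (adjusted p = 0.998) and, in control DEN tumours, 0.30 ± 0.23 (adjusted p = 0.287). In the last it was at 139, 141, 145, 181 and 96.4 CPM, against 51.9 to 174 CPM (median 113) in control livers. Per exon length, the ratio of Abcg5 to Abcg8 lay between 0.920 and 1.40 in the 23 livers (median 1.16) and between 0.842 and 2.02 in the 26 tumours (median 1.5), and 15 of the 26 tumours were above every liver. The difference in ratio was not tested. The genes lie head to head, with 109 bases between their RefSeq starts, printed here because both are read from it, Abcg5 to the left and Abcg8 to the right; it holds none of the 3 motifs.
Abcg5-Abcg8, chr17:84683012-84683120, plus strand: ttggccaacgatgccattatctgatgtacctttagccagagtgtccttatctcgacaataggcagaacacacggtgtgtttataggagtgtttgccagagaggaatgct

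Within groups the levels of Abcg5 and Abcg8 were closely related. Over the 12 control livers Pearson's r of log2 CPM was 0.96 (permutation p = 1e-05, the smallest that 100000 permutations can give; adjusted p = 9e-05; Spearman's rho 0.93, permutation p = 7e-05, adjusted p = 0.00063). Over the 11 ALIOS livers r was 0.98 and rho 0.98 (permutation p = 1e-05 for both, adjusted p = 9e-05 and 0.00018). Over the 12 ALIOS tumours r was 0.88 (permutation p = 0.00027, adjusted p = 0.00122) and rho 0.80 (permutation p = 0.0025, adjusted p = 0.009). Without the 2 libraries farthest from the median of Abcg5, r was 0.96, 0.96 and 0.69. Adjustment was over 18 correlations of 6 gene pairs in 3 groups, all tests were two-sided, and 82 exon bases are shared by the 2 genes.

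Srebf2 and Hmgcs1 were related in ALIOS tumours (r = 0.85, permutation p = 0.00054, adjusted p = 0.00194; rho = 0.89, permutation p = 0.00023, adjusted p = 0.00138), with r = 0.80 without the 2 farthest libraries and 0.87 over the 9 tumours that did not cluster with liver. In control livers r was 0.90 (permutation p = 4e-05, adjusted p = 0.00024; rho = 0.85, permutation p = 0.00102, adjusted p = 0.00459), 0.81 without the 2 farthest libraries and 0.66 over the 9 livers other than N5, N6 and N7. In ALIOS livers it was 0.043 (permutation p = 0.900, adjusted p = 0.900; rho = -0.18, permutation p = 0.595, adjusted p = 0.655), and the difference between groups was not tested. For Srebf2 with Sqle, r was 0.76 in control livers (permutation p = 0.0026, adjusted p = 0.00669), 0.19 in ALIOS livers (p = 0.580, adjusted p = 0.651) and 0.68 in ALIOS tumours (p = 0.0152, adjusted p = 0.0303). The rho was 0.67, 0.10 and 0.68 (adjusted permutation p = 0.0408, 0.778 and 0.0408), and without the 2 farthest libraries r was 0.48, 0.019 and 0.74. Over the 9 control livers other than N5 to N7 it was 0.12, so the relation in that group rested on those livers, and over the 9 ALIOS tumours that did not cluster with liver it was 0.40. For Hmgcs1 with Sqle, r was 0.83 (permutation p = 0.00102, adjusted p = 0.00306), 0.65 (p = 0.0318, adjusted p = 0.0530) and 0.68 (p = 0.0138, adjusted p = 0.0303) in the same order. Here rho was 0.76, 0.49 and 0.57 (adjusted permutation p = 0.0152, 0.193 and 0.0978), and without the 2 farthest libraries r was 0.68, 0.38 and 0.77. Over the 9 control livers other than N5 to N7 it was 0.48. Insig1 was not related to Hmgcs1 or to Insig2 past the threshold by Pearson's r in any of the 3 groups, with adjusted permutation p of 0.0530 or more, while rho of Insig1 with Hmgcs1 was 0.72 in ALIOS livers (adjusted permutation p = 0.0408).

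The storage enzymes and Stard4 completed the tumour comparisons. On the ALIOS diet Soat2 was called higher than in liver in spontaneous tumours (34.1 to 58.8 CPM, median 47; log2 fold change 0.27 ± 0.090 SE, adjusted p = 0.0134) and in DEN tumours (37.7 to 59.1 CPM, median 47.9; log2 fold change 0.37 ± 0.092 SE, adjusted p = 0.00275), against 30.0 to 50.5 CPM (median 38) in ALIOS livers. The control DEN tumours had Soat2 at 43.8, 38.6, 49.5, 67.8 and 32.2 CPM (log2 fold change 0.27 ± 0.13 SE, adjusted p = 0.0863; without T21, 0.35 ± 0.12, adjusted p = 0.0217). Soat1 had log2 fold changes of -0.45 ± 0.27 (adjusted p = 0.166), -0.16 ± 0.36 (adjusted p = 0.729) and -0.040 ± 0.27 (adjusted p = 0.912), and was at 1.8 to 10.4 CPM (median 6.17) in ALIOS tumours, 2.12 to 19.4 CPM (median 5.38) in ALIOS DEN tumours and 10.6, 3.32, 3.43, 2.1 and 4.64 CPM in control DEN tumours. Without T17 it was called lower in the last (-0.54 ± 0.21, adjusted p = 0.0386). Its highest level of all libraries was in T24, which also had the highest macrophage sum of the tumours (891 CPM) and the highest level of the macrophage gene Cd68 of all libraries (56.6 CPM), and their part in that level was not tested. Stard4 was at 112 to 441 CPM (median 291) in ALIOS tumours and 84.2 to 462 CPM (median 278) in ALIOS DEN tumours, with log2 fold changes of 0.25 ± 0.16 (adjusted p = 0.189) (called without T3, 0.33 ± 0.13, adjusted p = 0.0386) and 0.19 ± 0.24 (adjusted p = 0.551), and of 0.079 ± 0.14 (adjusted p = 0.666) in control DEN tumours at 379.7, 337, 230.3, 288 and 247 CPM.

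Leaving out the 5 tumours that clustered with liver raised the calls to 18 in ALIOS tumours (14 higher, 4 lower) and 16 in ALIOS DEN tumours (13 higher, 3 lower). The calls over all genes rose as well, to 8781 of 14245 and 7981 of 14632 genes tested. Among the genes gained was Stard4 in ALIOS tumours (0.49 ± 0.11, adjusted p = 0.000431), and Idi1, Sqle and Fdft1 in ALIOS DEN tumours (0.79 ± 0.26, adjusted p = 0.0146, then 0.82 ± 0.21, adjusted p = 0.00256, and 0.35 ± 0.10, adjusted p = 0.00914). Insig2 lost its call in ALIOS DEN tumours (0.54 ± 0.26, adjusted p = 0.0918), and Msmo1 lost its call in ALIOS tumours. Insig1 was gained in ALIOS tumours (0.41 ± 0.15, adjusted p = 0.0186), as was Soat1, which was lower (-0.69 ± 0.28, adjusted p = 0.037). With T1 kept, 7 of the 28 and 6683 of 14287 genes tested were called in ALIOS tumours. Other cell markers moved with the tumour comparisons: the 10 macrophage genes, none of them at 0, summed to 80.7 to 690 CPM in ALIOS tumours and 350 to 1303 CPM in ALIOS livers, and 7 hepatocyte genes to 82950 to 251200 and 85530 to 159200 CPM. In T2, T3 and T6 the hepatocyte sum was 82950, 129000 and 95040 CPM, and in T23, T24 and T25 it was 91220, 86390 and 104400 CPM. Their part in the results was not tested.

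DEN and spontaneous tumours of the ALIOS diet were then set against each other. No gene of the 14845 tested was called (0%), by edgeR, and 1079 had an unadjusted p under 0.05. DESeq2 called 86, none among the 28. Of the 28, only Insig2 had an unadjusted p under 0.05 (log2 fold change 0.92 ± 0.28 SE, adjusted p = 0.259). The next smallest p-values were those of Pmvk (-0.25 ± 0.15, adjusted p = 0.861), Fdps (-0.15 ± 0.13, adjusted p = 0.973), Mvd (-0.23 ± 0.19, adjusted p = 0.973), Scap (-0.24 ± 0.21, adjusted p = 0.979) and Idi1 (0.47 ± 0.44, adjusted p = 0.988). Lss differed by -0.074 on the log2 scale, with a 95% interval of -0.86 to 0.71, and Hmgcs1 by 0.24, with an interval of -0.34 to 0.83. For Srebf2, Abca1 and Soat2 the differences were 0.036 ± 0.16 (adjusted p = 0.9996), -0.0009 ± 0.25 (adjusted p = 0.9996) and 0.040 ± 0.11 (adjusted p = 0.9996), for Abcg5 and Abcg8 -0.19 ± 0.28 (adjusted p = 0.9996) and -0.10 ± 0.21 (adjusted p = 0.9996), and for Sqle, Insig1, Stard4 and Soat1 -0.22 ± 0.28 (adjusted p = 0.9996), -0.21 ± 0.22 (adjusted p = 0.9996), -0.13 ± 0.29 (adjusted p = 0.9996) and 0.25 ± 0.41 (adjusted p = 0.9996).

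Diet made no called difference among the 28 genes in DEN tumours, where edgeR called 2 of 14944 genes (0.0134%), 1273 had an unadjusted p under 0.05 and DESeq2 called 152, none of the 28. Insig2 again had the smallest p (log2 fold change 1.29 ± 0.38 SE, adjusted p = 0.36), followed by Acat2 (0.32 ± 0.19, adjusted p = 0.739), Scap (-0.31 ± 0.29, adjusted p = 0.868), Tm7sf2 (0.18 ± 0.18, adjusted p = 0.885), Abcg8 (-0.25 ± 0.27, adjusted p = 0.89) and Soat1 (0.51 ± 0.56, adjusted p = 0.89). Hmgcs1, Sqle, Srebf2 and Insig1 had log2 fold changes of 0.12 ± 0.38 (adjusted p = 0.962), -0.33 ± 0.36 (adjusted p = 0.891), -0.064 ± 0.18 (adjusted p = 0.959) and 0.00 ± 0.30 (adjusted p = 0.9999). For Abcg5, Abca1, Soat2 and Stard4 they were -0.23 ± 0.34 (adjusted p = 0.929), -0.13 ± 0.31 (adjusted p = 0.956), 0.044 ± 0.17 (adjusted p = 0.97) and -0.22 ± 0.36 (adjusted p = 0.935).

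The difference between the diet effect in DEN tumours and that in liver was tested as an interaction. It called 354 of 15606 genes (2.27%), 1.04% higher and 1.23% lower, and none of the 28. Among the 28 the smallest p-values were those of Insig2 (log2 fold change 1.38 ± 0.53 SE, adjusted p = 0.159) and Idi1 (log2 fold change 1.15 ± 0.50 SE, adjusted p = 0.229). DESeq2 called none of the 28 either. Acat2, Cyp51, Mvk and Tm7sf2 followed, at 0.47 ± 0.23 (adjusted p = 0.309), 0.54 ± 0.34 (adjusted p = 0.432), 0.43 ± 0.31 (adjusted p = 0.519) and 0.22 ± 0.20 (adjusted p = 0.609). Without T23 and T25, Idi1 was called (1.48 ± 0.39, adjusted p = 0.0377). Among the others, the estimate was 0.46 ± 0.45 (adjusted p = 0.645) for Hmgcs1, -0.097 ± 0.37 (adjusted p = 0.929) for Sqle, 0.049 ± 0.19 (adjusted p = 0.931) for Srebf2 and -0.072 ± 0.30 (adjusted p = 0.934) for Insig1, -0.27 ± 0.35 (adjusted p = 0.742) for Abcg5, -0.30 ± 0.32 (adjusted p = 0.672) for Abcg8 and -0.038 ± 0.26 (adjusted p = 0.961) for Abca1, and -0.11 ± 0.48 (adjusted p = 0.938) for Soat1, 0.10 ± 0.16 (adjusted p = 0.792) for Soat2 and 0.11 ± 0.31 (adjusted p = 0.894) for Stard4.

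Insig2 had the widest spread of the 28 genes in control livers. It was at 76 to 564 CPM (median 118) in control livers, 113 to 225 CPM (median 169) in ALIOS livers and 94 to 265 CPM (median 136) in ALIOS tumours (log2 fold change -0.17 ± 0.15 SE, adjusted p = 0.361). It was at 118, 139.8, 102, 106 and 108 CPM in control DEN tumours (log2 fold change -0.58 ± 0.45 SE, adjusted p = 0.297) and in ALIOS DEN tumours at 62.4 to 508 CPM (median 267) (log2 fold change 0.81 ± 0.26 SE, adjusted p = 0.0158). Its high values coincided with a gene of the circadian clock. Arntl, a core activator of the clock, was above 10 CPM, at 10.3 to 33.0 CPM, in 10 libraries and at 0.577 to 3.78 CPM in the other 39. The 10 were N11, N12, the control tumour T7, T4 and the ALIOS DEN tumours T15, T16, T23, T25, T26 and T27, and they had Insig2 at 224 to 564 CPM, against 62.4 to 265 CPM in the rest. Dbp, a clock output gene, was at 3.99 to 88.8 CPM in the 10 and 58.4 to 288 CPM in the rest.

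Leaving out these 10 libraries, an alternative chosen after their values were seen, changed the Insig2 results. In liver the diet log2 fold change went from -0.099 to 0.57 ± 0.15 (adjusted p = 0.0251), so that Insig2 was called higher on the ALIOS diet, with 76.0 to 160 CPM in the 10 control livers left and 113 to 225 CPM in the 11 ALIOS livers. In ALIOS DEN tumours against ALIOS livers it went from 0.81 to -0.65 ± 0.28 (adjusted p = 0.0866), with 2 tumours left, T22 (146 CPM, within the range of ALIOS livers) and T24 (62.4 CPM, below it). Against ALIOS tumours it became -0.41 ± 0.35 (adjusted p = 0.855) and against control DEN tumours -0.14 ± 0.32 (adjusted p = 0.923), and in the interaction it turned from 1.38 to -0.70 ± 0.34 (adjusted p = 0.334). The labels give no hour of collection, and the part of the clock genes in these results was not tested. The counts of genes called without the 10 libraries were 7 in the diet comparison, 11 in ALIOS tumours, 6 in ALIOS DEN tumours and 13 in control DEN tumours. Over all genes they were 1131 of 13799, 7142 of 14074, 5312 of 15333 and 7346 of 14656 genes tested. In the diet comparison Soat1 then had an adjusted p of 0.0517. Mvk (-0.63 ± 0.19, adjusted p = 0.0382) and Msmo1 (-0.69 ± 0.17, adjusted p = 0.0186) were gained in it. In ALIOS DEN tumours, where 2 libraries were left, Mvk was gained (0.79 ± 0.17, adjusted p = 0.0022) and 4 further calls were lost. The log2 fold change there was -0.74 ± 0.30 (adjusted p = 0.0708) for Tm7sf2, -0.55 ± 0.25 (adjusted p = 0.107) for Pmvk and 0.85 ± 0.32 (adjusted p = 0.0512) for Hmgcs1, against -0.61, -0.49 and 1.005 with all 8 tumours, and 0.20 ± 0.28 (adjusted p = 0.618) for Abca1, against 0.55.

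Other genes of sterol handling gave a background for the 28. Of 31 further genes on a fixed list 30 were tested in each comparison. On the ALIOS diet in liver 3 were higher and none lower, where 6.73% of all genes were higher and 4.51% lower. They were led by the lipoprotein receptor gene Vldlr (2.24 ± 0.38, adjusted p = 0.00141) and Gramd1b, a carrier of cholesterol from the plasma membrane (0.86 ± 0.16, adjusted p = 0.00224). Of the same 30 genes, 9 were higher and 11 lower in ALIOS tumours, 7 and 9 in ALIOS DEN tumours and 8 and 9 in control DEN tumours, so that this list, like the 28, held calls in both directions. Over all genes the shares called higher and lower were 26.9% and 25.9%, 27.7% and 19.8%, and 27.3% and 24.4%. Gramd1b was at 1.89 ± 0.20 (adjusted p = 5.36e-07) in ALIOS DEN and 2.66 ± 0.12 (adjusted p = 1.57e-12) in control DEN tumours. The other leading genes were lower: Lcat, which esterifies cholesterol in plasma (-0.99 ± 0.12, adjusted p = 8.27e-07), and Acat1, the mitochondrial thiolase (-0.84 ± 0.11, adjusted p = 1.63e-06), in ALIOS tumours, Stard5 in ALIOS DEN tumours (-1.33 ± 0.15, adjusted p = 1.09e-06) and Cyp27a1, a bile acid enzyme, in control DEN tumours (-2.77 ± 0.30, adjusted p = 3.02e-07). None of the 30 was called between DEN and spontaneous tumours, between the diets in DEN tumours or in the interaction. The 2 with the smallest p were Stard5 (-0.42 ± 0.22, adjusted p = 0.74) and Scarb1 (0.23 ± 0.17, adjusted p = 0.939) in the first, Lipa (0.42 ± 0.17, adjusted p = 0.509) and Acat1 (0.40 ± 0.19, adjusted p = 0.62) in the second, and Gramd1b (-0.77 ± 0.25, adjusted p = 0.093) and Vldlr (-1.75 ± 0.67, adjusted p = 0.162) in the third.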

How the data were processed

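RNA sequencing of 50 mouse liver and tumour libraries was used, 49 of them in the comparisons. Per the labels and the study's methods, the authors made stranded mRNA libraries, aligned paired-end reads to mm10 with STAR in 2 passes and counted them over Gencode M6 exons with HTSeq (versions and strand setting not given in the sources used here). The deposited values were raw counts per gene. Counts were tested with edgeR 4.0.16 (TMM, filterByExpr, quasi-likelihood test, Benjamini-Hochberg adjustment over all genes tested, threshold 0.05) on the groups of each comparison. T1 was left out because it held kidney transcripts. Levels are TMM-scaled CPM, and correlations use log2 CPM with a prior count of 2. Per-length levels and overlaps used Gencode M21 exons (GRCm38).

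The 28 genes and the lists (other sterol, clock, fasting, fatty acid synthesis and marker genes) were chosen with earlier results of these data known. Full statistics are given for the 6 genes with the smallest p in each comparison and for 11 genes fixed by role, and for the 2 leading genes of the other sterol list; other genes are named to account for a count or were chosen after their values were seen (Arntl, Dbp). No 2 libraries of a group agreed within sampling noise. The test was checked on simulated data, the outcome of which is not given here and is not relied on. Alternatives were DESeq2 1.42.0, its size factors, no filter, 1 fit over 6 groups, T1 kept and single libraries left out. Chosen after the data were seen were those without N5 to N7, without tumours that cluster with liver and without libraries high in Arntl. Library totals ran from 23798251 to 45751398 counts, and intervals of counting error were not needed since each test rests on the spread between libraries.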

Additional observations from a re-analysis of the deposited data

Results flagged for a closer look

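Each of the 28 genes was searched, in both groups of DEN tumours, for a single library lying apart by a wide gap on the log2 CPM scale (Dixon's test). Of these 56 searches 6 found one, 4 of them in T24. Chance gives about 1 in 20, or 2.8, for independent searches, but these searches share the same tumours and are not independent. The share over all genes is not given here, so the count is a description only. Tumour T24 was the lowest ALIOS DEN tumour by such a gap for 4 genes: Tm7sf2 (65.1 CPM, against 108 to 165 CPM in the others), Sc5d (89.3 CPM, against 368 to 914 CPM in the others), Insig1 (127 CPM, against 365 to 676 CPM in the others) and Abcg5 (27.9 CPM, against 96.8 to 226 CPM in the others). T24 also held the highest sums of the 49 libraries for stellate cell and matrix (1227 CPM), cholangiocyte (60.15 CPM, next 20.94) and lymphocyte genes (11.15 CPM, next 8.59), the highest macrophage sum of the tumours (891 CPM) and a hepatocyte sum of 86390 CPM, among the 3 lowest. The part of these in the 4 values was not tested. In control DEN tumours, T18 was low for Cyp51 (190.1 CPM, against 266 to 305 CPM in the others) and T17 high for Hsd17b7 (162 CPM, against 101 to 116 CPM in the others).

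The single spontaneous tumour of the control diet, T7, entered no comparison. Of the 28 genes 4 were above all 23 livers in it: Lss at 465 CPM (72.1 to 227 in livers), Sc5d at 929 CPM (432 to 722), Dhcr7 at 347 CPM (124 to 259) and Abca1 at 344 CPM (184 to 266). A single gene, Ebp, was below all of them, at 174 CPM. The share of all genes that lay outside the 23 livers in T7 is not given here, so these counts are a description only.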

How the results depend on the processing

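The count of genes called kept within 1.5 times the reported one under most alternatives. With all 6 groups in 1 fit, 0 genes were called between the diets in liver. In control DEN tumours that fit lost the calls of Sqle (adjusted p = 0.0507), Idi1 (0.136), Scap (0.1105) and Abcg5 (0.0677). In ALIOS tumours it lost those of Msmo1 (0.208), Dhcr7 (0.139) and Abcg5 (0.0598). With T1 kept, 7 were called in ALIOS tumours. Without the tumours that cluster with liver, 16 were called in ALIOS DEN tumours and 1 in the interaction. Without the libraries high in Arntl, 6 were called in ALIOS DEN tumours, and Insig2 turned to -0.65 there and to 0.57 in the diet comparison. The value of -0.65 rests on 2 tumours, of which only T24 lay below the range of ALIOS livers. Leaving out 1 library at a time gave 2 to 7 calls between the diets, 11 to 14 in ALIOS tumours, 9 to 12 in ALIOS DEN tumours and 10 to 14 in control DEN tumours. For both kinds of DEN tumour only tumours were left out in this way, and no liver. The calls over all genes in these fits are not given here. In control livers without N5 to N7, r was 0.66 for Srebf2 with Hmgcs1, 0.12 for Srebf2 with Sqle and 0.48 for Hmgcs1 with Sqle; without the 2 farthest libraries it was 0.48 for Srebf2 with Sqle. In ALIOS tumours that did not cluster with liver it was 0.40 for that pair. Where no value above bears on it, the cause was not tested. No paired analysis was possible because the labels give the groups no shared replicate numbers. Soat1, at 1.80 to 19.4 CPM, is the gene whose precision depth limits most.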

Other observations

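Gene lists outside the 28 gave the setting in which they were measured. Over all genes tested 11.2% were called in the diet comparison, and 52.8%, 47.5% and 51.7% in the comparisons of ALIOS, ALIOS DEN and control DEN tumours with liver, so that many of the counts are near the share of all genes and all are given as a description. On the ALIOS diet in liver, 8 of 10 macrophage genes were higher, as were 2 of 6 stellate cell and matrix genes, 2 of 4 lymphocyte genes tested, 1 of 4 cholangiocyte genes, 2 of 4 proliferation genes tested and 1 of 7 fasting genes, while none of 6 endothelial, 7 hepatocyte, 7 fatty acid synthesis or 11 clock genes was called. In the 3 comparisons of tumour with liver, in the order ALIOS, ALIOS DEN and control DEN, proliferation genes were called higher in 4, 6 and 6 of 6 cases and fatty acid synthesis genes lower in 2, 3 and 3 of 7, with none higher. Fasting genes were called lower in 3 of 7 cases in each, and higher in 1, 2 and 1. Clock genes were 1 higher of 11 tested in ALIOS and in control DEN tumours, and 4 higher and 5 lower of 12 in ALIOS DEN tumours. Hepatocyte genes were higher in 3 of 7 cases in each and lower in 3, 2 and 1. Macrophage genes were lower in 9, 1 and 3 of 10. Endothelial genes were higher in 2, 2 and 3 of 6 and lower in 1, 1 and 2, stellate cell and matrix genes were higher in 1, 3 and 4 of 6 and lower in 2 in each, and 1 of 4 cholangiocyte genes was higher in each. Of these 3 comparisons, lymphocyte genes were called only in control DEN tumours, 2 higher of 5 tested. The 4 adipocyte genes summed to at most 0.128 CPM in any of the 49 libraries, and 5 kidney genes to at most 21.96 CPM. In control DEN tumours 1 kidney gene passed the filter and was called higher. No gene of these lists was called in the remaining comparisons, other than 3 of 12 clock genes that were higher in the interaction.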
